A study of Mus musculus with 60 samples.

Results

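The parotid gland and the pancreas of the same mice were compared by bulk RNA sequencing of poly(A)-selected RNA, to describe what these serous exocrine glands share at high level and where they differ. The comparison held 10 animals, each with 1 parotid and 1 pancreas library, and so 20 of the series' 60 libraries from 12 animals. An animal was kept where its pancreas library held at least 1000000 raw counts of Cpa1, the gene of the pancreatic zymogen carboxypeptidase A1. CD1 female 2 (2405 counts of Cpa1) and CD1 female 3 (644257 counts) were left out by this rule, and the kept library nearest to the limit held 1100254 counts. The kept animals were 3 CD1 males, 1 CD1 female, 3 C57 males and 3 C57 females. CD1 mice are outbred and C57 mice inbred, and each animal goes by its strain, sex and replicate (C57 male 2). The labels name no treatment and no genetic change in any group, and age is not given in the sources used here. The submandibular, sublingual and liver libraries of the series were used only to find the tissue in which a gene stood highest.

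Serous acinar cells make secretory proteins on the rough endoplasmic reticulum, pack them into zymogen granules at their apex and release the granules by exocytosis when calcium or cyclic AMP rises in the cell. The pancreas is known for zymogens and enzymes that digest protein, fat and starch in the gut, and its acinar cells answer to cholecystokinin and acetylcholine. The parotid is known for a watery saliva with amylase, proline-rich proteins and antimicrobial proteins, and its acinar cells answer to acetylcholine and noradrenaline from autonomic nerves.

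The sequence before the start of a few genes of secreted proteins and of 1 chaperone is shown first, because the results below turn on them. Each sequence is the 250 bases before a start site in RefSeq on build GRCm38.p6, printed 5′ to 3′ on the gene's strand. The counts were made on GRCm39, so these positions belong to the sequences only. Capitals mark letter strings searched on both strands: CACCTG and TTCCCA, known as the 2 parts of the site bound by the pancreatic PTF1 complex of Ptf1a and Rbpjl, and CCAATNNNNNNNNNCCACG, the endoplasmic reticulum stress element. TTCCCA can share letters with either of the others. Amy1, the salivary amylase gene, is known to have a salivary start upstream of the one used in liver, and both are shown (chr3:113577751-113578000 and chr3:113574763-113575012, minus strand). Amy2a5 (chr3:113258700-113258949, minus strand) and Amy2b (chr3:113156728-113156977, minus strand) are pancreatic amylase genes of the same cluster. Cela2a (chr4:141826006-141826255, minus strand), an elastase gene, and Cpa1 (chr6:30638968-30639217, plus strand) stand for the pancreatic zymogens. Bpifa2 (chr2:154008026-154008275, plus strand), the most abundant parotid message, stands for saliva, and Hspa5 (chr2:34771840-34772089, plus strand) for the chaperones that both glands use.
Amy1, upstream start: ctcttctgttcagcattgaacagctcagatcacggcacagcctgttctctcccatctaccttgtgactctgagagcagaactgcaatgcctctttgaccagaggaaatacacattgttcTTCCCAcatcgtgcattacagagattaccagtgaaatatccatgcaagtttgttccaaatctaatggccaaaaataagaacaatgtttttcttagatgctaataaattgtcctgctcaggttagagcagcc
Amy1, downstream start: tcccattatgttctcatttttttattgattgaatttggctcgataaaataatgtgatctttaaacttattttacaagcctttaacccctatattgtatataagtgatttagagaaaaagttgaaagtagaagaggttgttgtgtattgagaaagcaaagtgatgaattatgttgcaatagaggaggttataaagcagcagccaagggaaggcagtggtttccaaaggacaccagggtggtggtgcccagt
Amy2a5: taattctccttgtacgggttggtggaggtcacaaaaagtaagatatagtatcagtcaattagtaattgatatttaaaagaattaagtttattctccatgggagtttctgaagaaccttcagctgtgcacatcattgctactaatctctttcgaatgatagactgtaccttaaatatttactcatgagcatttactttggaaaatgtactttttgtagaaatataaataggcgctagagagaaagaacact
Amy2b: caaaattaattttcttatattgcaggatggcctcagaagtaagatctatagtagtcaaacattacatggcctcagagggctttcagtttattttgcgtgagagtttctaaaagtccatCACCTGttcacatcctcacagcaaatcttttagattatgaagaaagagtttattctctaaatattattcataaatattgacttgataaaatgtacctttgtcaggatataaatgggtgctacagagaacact
Cela2a: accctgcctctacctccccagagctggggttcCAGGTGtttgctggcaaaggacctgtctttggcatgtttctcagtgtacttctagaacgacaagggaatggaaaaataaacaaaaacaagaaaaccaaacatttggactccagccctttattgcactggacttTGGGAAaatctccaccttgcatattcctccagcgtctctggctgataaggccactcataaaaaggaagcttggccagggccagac
Cpa1: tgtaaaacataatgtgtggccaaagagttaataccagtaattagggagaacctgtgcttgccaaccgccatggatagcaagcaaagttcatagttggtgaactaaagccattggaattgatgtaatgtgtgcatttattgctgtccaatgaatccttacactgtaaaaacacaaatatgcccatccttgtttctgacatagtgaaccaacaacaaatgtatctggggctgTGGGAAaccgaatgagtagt
Bpifa2: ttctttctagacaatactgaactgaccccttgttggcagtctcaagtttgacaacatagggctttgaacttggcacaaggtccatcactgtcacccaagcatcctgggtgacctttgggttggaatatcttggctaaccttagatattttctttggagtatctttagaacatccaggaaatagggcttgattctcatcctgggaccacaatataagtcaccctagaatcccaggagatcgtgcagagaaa
Hspa5: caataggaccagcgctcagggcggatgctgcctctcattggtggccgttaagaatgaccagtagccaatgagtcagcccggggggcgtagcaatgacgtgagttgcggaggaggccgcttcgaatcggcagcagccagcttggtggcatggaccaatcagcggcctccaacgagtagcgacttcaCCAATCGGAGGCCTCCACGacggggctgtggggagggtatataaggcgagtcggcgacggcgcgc

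Among the pancreatic enzyme genes, 24 of 30 matched the RefSeq table, and 13 of their 24 upstream sequences (54.2%) held CACCTG, against 17.2% of all 32851 sequences of this length. TTCCCA stood in 11 of the 24 (45.8%) against 21.6% of all, and both strings stood in 6 (25%) against 3.91%. Of the parotid saliva protein genes, 15 of 20 matched, with 18 sequences, of which 1 (5.56%) held CACCTG and 4 (22.2%) held TTCCCA. Other lists also stood above the shares of all sequences. Of 10 sequences of zymogen granule genes, 3 (30%) held CACCTG, 3 (30%) TTCCCA and 1 (10%) both. Of 38 sequences of folding genes, 9 (23.7%) held CACCTG, 13 (34.2%) TTCCCA and 3 (7.89%) both. The endoplasmic reticulum stress element stood in 10 of 38 sequences (26.3%) from the 33 matched genes of folding and the unfolded protein response, against 37 sequences (0.113%) of all, and in 0 of the 24 enzyme sequences. A match is a description of letters. These strings were not searched outside this window, and no binding was measured.

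Library depth ran from 39178000 to 66586100 counts in the parotid and from 30409300 to 45516800 in the pancreas, rounded to 6 digits. The 10 genes with the most counts took 45.1 to 68.8% of a parotid library and 53.8 to 59.5% of a pancreas library. Levels are therefore given as counts per 1000000 (CPM) after scaling by the trimmed mean of M-values (TMM), called scaled CPM below. TMM sets the libraries to a common level over the bulk of genes, and its factors were 1.08 to 2.01 in the parotid and 0.620 to 0.782 in the pancreas. Scaled CPM of the enzyme genes of a pancreas library can therefore add up to as much as 1152190. A gene was called different where edgeR's quasi-likelihood test with the animal as a block gave an adjusted p under 0.05 and the difference was at least 2-fold. Fold changes are log2 values of parotid over pancreas with their standard error (SE), and a negative value means higher in the pancreas. A signed value in brackets after a gene is this log2 fold change. In whole tissue, fewer cells of a type and less RNA per cell cannot be told apart.

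Of 15202 genes tested, 3902 were called (25.7%): 2276 higher in the parotid (15%) and 1626 higher in the pancreas (10.7%). The median log2 fold change of all genes tested was 0.12. In 1494 of the parotid calls and 1261 of the pancreas calls all 10 animals differed the same way. The 20 libraries did not overlap between the glands for 2305 genes (15.2%), 1152 with the parotid higher (7.58%) and 1153 with the pancreas higher (7.58%). Differences of at least 10-fold numbered 265 in favour of the parotid and 366 in favour of the pancreas. The split of calls depended on the scaling: with library size only, the median of all genes moved to 1.25 and 94.4% of 10714 calls were higher in the parotid, against 58.3% here. Counts under that scaling are given below where they turn the direction of a gene list. Marker lists and calls in the low range defined below were not recounted under it.

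Genes that stood highest in 1 tissue were also read at a low level in the other tissues, which bears on the largest differences. For this, levels were set side by side as mean CPM by library size only, over all 5 tissues and their 12 animals (10 for the pancreas). Of 31 genes with at least 1000 CPM that stood highest in the pancreas, 31 were read in the parotid at 0.338 to 0.958% of the pancreas level, with a median of 0.384%. Of 15 such parotid genes, 14 were read in the pancreas at 0.441 to 1.63% of the parotid level, with a median of 1.1%. Of 113 such liver genes, 84 were read in the pancreas at 0.578 to 2.97% of the liver level. A level under 3% of a gene's highest tissue is called the low range here. Whether it reflects expression or reads from other libraries was not tested. Where a gene's highest tissue is the parotid or pancreas, a fold change in the low range says that the gene is high there. It does not measure how low the gene is in the other gland. Where the highest tissue is liver or another salivary gland, the low range is set against that tissue and not against the other gland. Ehf had 730 mean CPM in the sublingual gland, 130 in the parotid and 16.4 in the pancreas. Whether reads from such a tissue added to the lower gland's level was not tested. The lower gland was in the low range for 646 parotid calls and 547 pancreas calls. The gland called higher was itself in the low range for 1 parotid call and 322 pancreas calls, of which 277 stood highest in liver, 27 in the sublingual and 18 in the submandibular gland. Leaving such calls out, a step chosen after the data were seen, left 2275 and 1304.

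**Figure D1:**
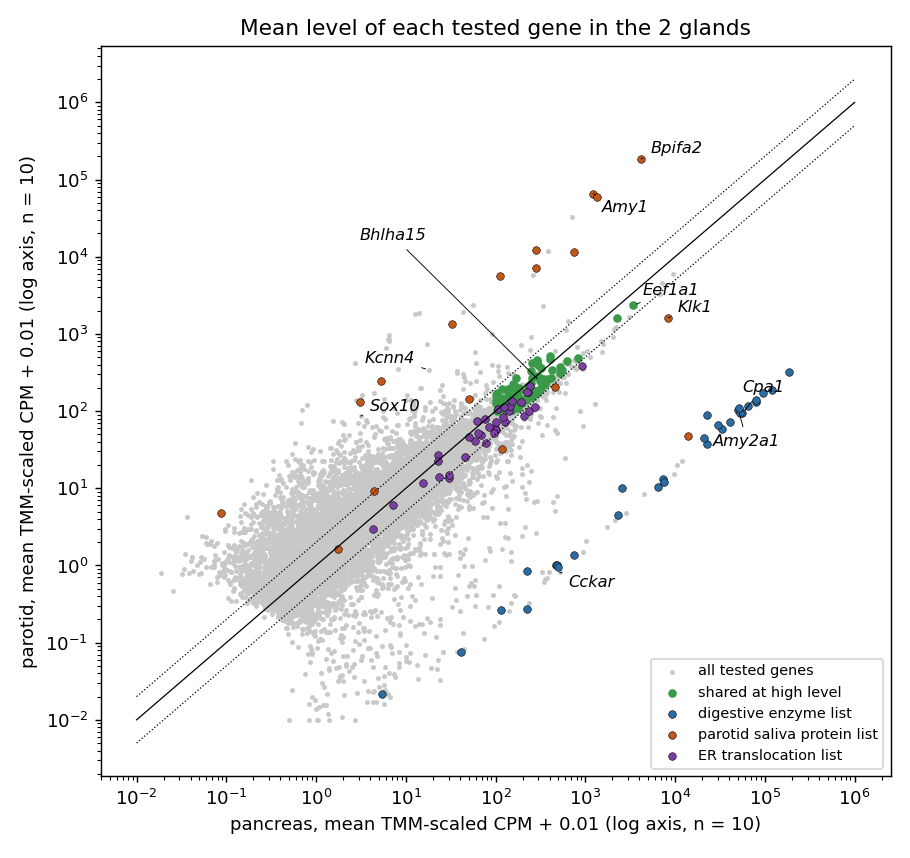
Mean scaled CPM of each tested gene in the parotid (y axis) against the pancreas (x axis), both on log axes after adding 0.01, 10 libraries each, with the solid line at equal levels and dotted lines at 2-fold. Enzyme genes lie in a band far below the line and most parotid saliva proteins above it, with exceptions such as Dmbt1 and Klk1 below it. The genes shared at high level lie between the dotted lines.

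Genes shared at high level were set as those with a mean of at least 100 scaled CPM in both glands, a 95% interval of the log2 fold change inside 2-fold either way, and neither gland in the low range. There were 122 such genes (0.803% of those tested). They came from 220 genes at 100 CPM or more in both glands outside the low range, and 23 of the 122 were ribosomal protein genes. Leaving ribosomal, mitochondrial and predicted genes aside, those with the highest level per kilobase were housekeeping genes. Eef1a1, which carries aminoacyl-tRNA to the ribosome, had 1866 to 2858 with a median of 2250.1 scaled CPM in the parotid and 3061 to 4036 with a median of 3407 in the pancreas. Eef2, which moves the ribosome along, had 1129 to 2050.1 with a median of 1678 and 1799 to 2672 with a median of 2306. Ftl1, the ferritin light chain, had 388 to 546 with a median of 493 and 661 to 1070.3 with a median of 838. The parotid and pancreas ranges of Ftl1 and Eef1a1 did not overlap, the pancreas being higher by less than 2-fold (log2 fold changes -0.77 and -0.55). Among these 12 genes the glands were closest for Cox4i1, a cytochrome oxidase subunit (log2 fold change 0.06, 5 animals higher in each direction), and Ptma, prothymosin (0.06). Cox6a1, Atp5f1b, Ubb, Rabac1, Ppia, Fau and Oaz1 completed the 12, with log2 fold changes from -0.60 (Rabac1, a Rab-binding protein of the Golgi) to 0.35 (Atp5f1b, of mitochondrial ATP synthase).

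The same shared set, 0.803% of all genes tested, held some genes of the route of a secretory protein. These were 8 of 36 measured genes of entry into the endoplasmic reticulum and N-glycosylation, 3 of 38 of folding and 4 of 38 of vesicle coats and transport. The set held 0 of 29 genes of granule release and 0 of 13 of the zymogen granule membrane and matrix. Among members of these lists that were not called, the highest was Vamp8, at means of 54.9 (parotid) and 72.1 (pancreas) scaled CPM. The set requires at least 100 in both glands, so it could hold none of them however alike the glands were. It included the signal recognition particle receptor Srpra, the channel genes Sec61a1 and Tram1, the translocon genes Ssr2 and Ssr3, the signal peptidase gene Spcs2 and the oligosaccharyltransferase genes Rpn1 and Rpn2. Among folding genes it held Calr, Canx and Pdia3, and among transport genes Surf4, Tmed10, Copa and Arcn1. Rpn1 and Pdia3 were the closest of these. Rpn1 had 69.0 to 151 with a median of 106 scaled CPM in the parotid and 77.6 to 129 with a median of 108 in the pancreas (log2 fold change 0.00). It also held Bhlha15, Gnas, the calcium pump gene Atp2a2, and the amino acid carrier genes Slc3a2 and Slc1a5. When genes were ranked by level per kilobase, the 100 highest of the parotid and the 100 highest of the pancreas shared 53. Of these, 26 were ribosomal protein genes, 10 were mitochondrial and 11 were in the low range in 1 gland. The other 6 were Klk1, Eef1a1, Eef2, Ftl1, Tpt1 and Gm26917. Of the 53, only 8 met the definition of shared genes above, while 6 were called higher in the parotid and 16 in the pancreas.

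Most genes of entry into the endoplasmic reticulum and N-glycosylation were within 2-fold. Of 36 measured genes, 0 were called higher in the parotid (beside 15% of all genes tested) and 6 in the pancreas, or 16.7% beside 10.7% (Rrbp1, Ssr4, Lrrc59, Sec62, Sec61g and Srp19), with a median log2 fold change of -0.53 beside 0.12 over all genes, and with library size only the count turned to 5 and 0. Rrbp1, the ribosome-binding protein of the rough membrane, was the most abundant, at 217 to 624 with a median of 362 scaled CPM in the parotid and 608 to 1286 with a median of 936 in the pancreas (log2 fold change -1.30 ± 0.13, adjusted p = 3.70e-06). The lowest pancreas library lay just below the highest parotid library. Sec61a1, the pore itself, had 103 to 232 and 199.8 to 274 with a median of 219 and was not called (log2 fold change -0.45). Srpra had 125 to 285 with a median of 239 and 184 to 269 with a median of 244 and was not called either (-0.22).

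Chaperones and genes of the unfolded protein response were often higher in the pancreas. Of 38 measured genes, 20 were called higher in the pancreas (52.6%, beside 10.7% of all tested) and 0 in the parotid (beside 15%). The median log2 fold change was -1.01. With library size only, 5 were higher in the pancreas and 2 in the parotid. Hspa5 (BiP), the main chaperone of the compartment, had 103 to 264 with a median of 175 scaled CPM in the parotid and 309 to 639 with a median of 406 in the pancreas, with no overlap (log2 fold change -1.34 ± 0.14, adjusted p = 4.65e-06). P4hb, the disulfide isomerase with the highest CPM among the called genes outside the low range, had 309.8 to 1079 with a median of 569.9 and 1335 to 1905 with a median of 1500.3 (-1.46). The larger differences outside the low range were in degradation and oxidation. Sel1l, the scaffold of the complex that sends misfolded proteins out for degradation, had 59.1 to 163 with a median of 106 and 711 to 1092 with a median of 847 (log2 fold change -3.16 ± 0.15, adjusted p = 2.93e-09). Ero1b, the oxidase that recharges disulfide isomerases and is known from pancreas, had 27.9 to 87.5 with a median of 50.4 and 446 to 554 with a median of 479 (-3.30), and Edem1, which feeds glycoproteins to degradation, stood at -2.50. Every pancreas library was above every parotid library for these 3 genes. The co-chaperones and factors Sdf2l1, Creld2, Dnajb11 and Manf followed at -2.02, -2.04, -1.80 and -1.49. Pdia2 and Erp27, disulfide isomerase family genes known from pancreas, were at -9.30 and -8.74, with the parotid in the low range. Calr, a lectin chaperone, was not called (171 to 472 with a median of 259 and 209.6 to 448 with a median of 288, -0.17), and neither was Pdia3, its partner (0.00).

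Of 38 vesicle coat and transport genes, 1 was called in each direction (2.63% each, beside 15% and 10.7% of all genes tested): Tmed9, a cargo receptor (63.4 to 152 with a median of 111 scaled CPM in the parotid and 34.4 to 64.5 with a median of 42.0 in the pancreas, log2 fold change 1.23 ± 0.16, adjusted p = 4.09e-05), and Tmed6, with the parotid in the low range (-9.22). The median of the group was -0.29, and with library size only the counts were 12 and 1. Of 29 genes of granule release, 2 were called higher in the parotid (6.9%) and 5 in the pancreas (17.2%), with a median of -0.08, and with library size only 18 and 1. Rab3d, the Rab protein of zymogen granules, had 64.7 to 149 with a median of 109 and 186 to 224 with a median of 210.2 without overlap (log2 fold change -1.05 ± 0.14, adjusted p = 4.22e-05). It was close to the 2-fold limit and was not called without the animals high in adipocyte, skeletal muscle or T cell markers (-0.97, -0.95 and -0.80). Rab26, another granule Rab protein, had 6.50 to 17.5 with a median of 9.80 and 35.7 to 58.7 with a median of 43.3 (-2.06). The membrane fusion genes Vamp8, Snap23 and Stxbp2 were not called, at -0.40, -0.02 and -0.12. The parotid calls were Unc13d and Sytl2, both below 20 CPM in every library. Neither was called without the 4 animals whose parotid was high in T cell markers (0.44 and 0.43), and Sytl2 was not called without those high in adipocyte or skeletal muscle markers (0.95 and 0.99). Unc13d ranged over 1.02 to 19.1 with a median of 3.58 in the parotid and stood at -0.20 in the females alone.

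**Figure D2:**
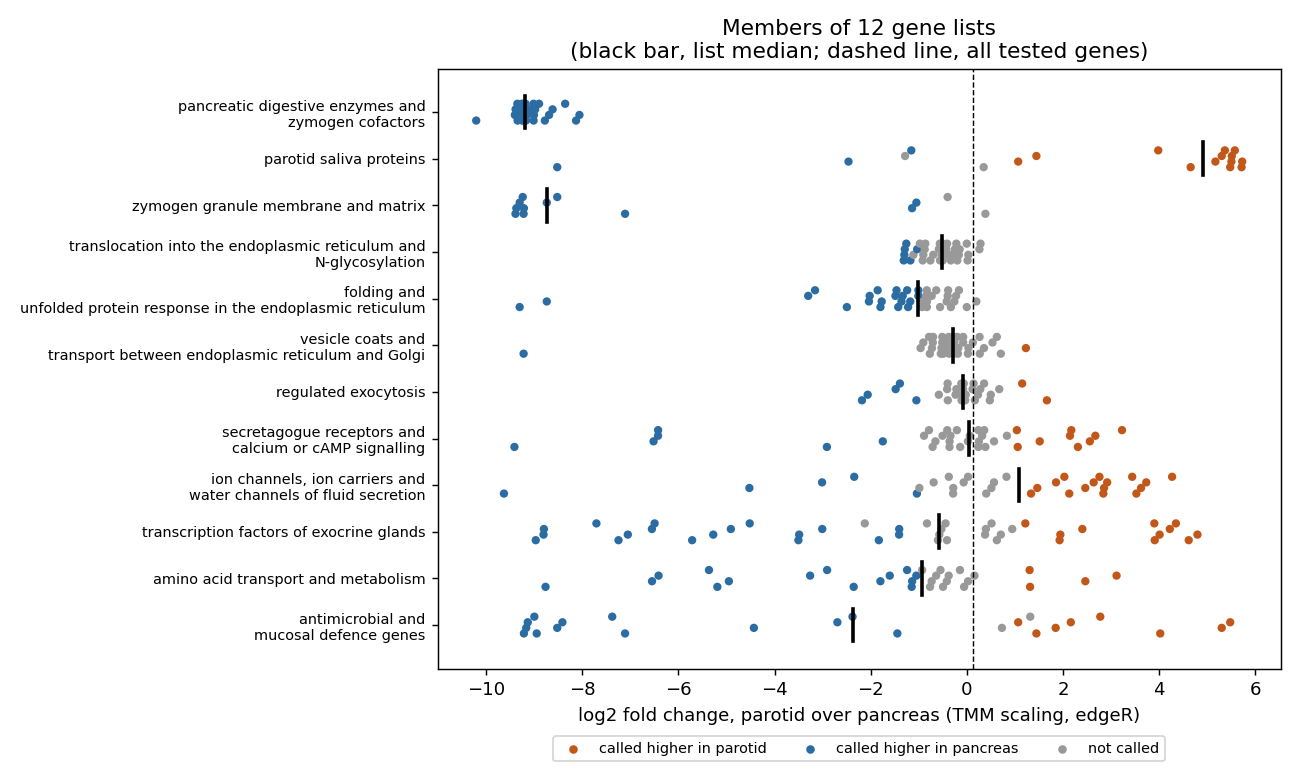
Log2 fold change (parotid over pancreas, x axis) of each measured member of 12 gene lists, coloured by call, with the median of each list as a black bar and the median of all tested genes as a dashed line. Most enzymes and granule proteins lie near -9, most saliva proteins near 5, and most coat and exocytosis genes around 0.

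Digestive enzymes were high in the pancreas and in the low range in the parotid. Of 30 measured genes of the enzyme and zymogen list, 30 were called higher in the pancreas, with a median log2 fold change of -9.19. The list includes Cpa1, whose pancreas counts chose the animals, so its calls and shares are not independent of that choice. With all 12 animals, 28 genes of the list were called higher in the pancreas and 0 in the parotid. In the kept animals the 30 genes together took 65.3 to 72.7% of pancreas counts and 0.152 to 0.477% of parotid counts. Ctrb1, a chymotrypsinogen, was the most abundant, at 141972 to 225643 with a median of 175570.0 scaled CPM in the pancreas and 153 to 493 with a median of 312 in the parotid. Cela2a, an elastase zymogen, had 92071 to 141209 with a median of 117940.0 in the pancreas and 85.6 to 289 with a median of 178 in the parotid (log2 fold change -9.40 ± 0.38, adjusted p = 5.79e-10). Cpa1 (chromosome 6, listed exon 30639217-30639527 on GRCm39), which the choice of animals used, had 44946 to 63342 with a median of 57146 and 44.5 to 159.6 with a median of 86.0. Genes of lipid digestion stood at like values: Cel, the carboxyl ester lipase (-9.35), Clps, the colipase (-9.39), and Pnliprp2, a lipase-related protein (-9.34). Serpini2, a serine protease inhibitor family gene, was among the 12 largest pancreas differences of genes at 100 CPM or more (-9.41 ± 0.21, adjusted p = 1.77e-11), as were Cela2a, Cpa1, Cel, Clps, Pnliprp2, Amy2a2, Pdia2, Gp2, Sycn, Cckar and Aqp12. Prss1, a trypsinogen, had at most 3 counts in every parotid library, so its level was at least 114-fold lower in the parotid. The trypsinogen copies can share reads, and how these were split is uncertain.

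Proteins of the zymogen granule were mostly higher in the pancreas. Of 13 measured genes of the zymogen granule membrane and matrix, 11 were called higher in the pancreas and 0 in the parotid, with a median of -8.74, and 9 were in the low range in a gland. Gp2, the main glycoprotein of the pancreatic granule membrane, had 7163 to 12670.4 with a median of 9723 scaled CPM in the pancreas and 7.84 to 22.8 with a median of 15.2 in the parotid (log2 fold change -9.37 ± 0.31, adjusted p = 9.56e-11). Sycn, syncollin, and Zg16, a granule lectin, stood at -9.39 and -9.22. Dmbt1, a scavenger receptor protein that is also on the saliva list, had 12086 to 16422 with a median of 14278 in the pancreas and 16.8 to 122 in the parotid (-8.52). Nucb2, a calcium-binding protein, and Rab3d were the called members outside the low range. Nucb2 had 289 to 445 with a median of 371 and 88.7 to 284 with a median of 163, which do not overlap (-1.14 ± 0.15, adjusted p = 4.10e-05). Vamp8 and Chrm3 were the members not called.

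Saliva proteins were mostly higher in the parotid. Of 18 measured genes of the parotid saliva list, 13 were called higher in the parotid (72.2%) and 3 in the pancreas (16.7%). Of all genes tested the shares were 15% and 10.7%. The median of the list was 4.91. The list took 38.5 to 62.5% of parotid counts and 1.77 to 2.84% of pancreas counts. Bpifa2, the parotid secretory protein, had 82039.5 to 303988 with a median of 173297 scaled CPM in the parotid and 2133 to 7669 with a median of 3506 in the pancreas (chromosome 2, listed exon 153850196-153850231, log2 fold change 5.48 ± 0.44, adjusted p = 4.37e-07). Smr3a, a submaxillary gland androgen-regulated protein family gene, had 31633 to 104483 with a median of 55364 and 650.5 to 2391 with a median of 1134 (5.50). Dnase1, the secreted nuclease, had 6441 to 17977 with a median of 12768 and 128 to 542 with a median of 241 (5.51). In all 3 genes the lowest parotid library was over 10-fold above the highest pancreas library, and the pancreas was in the low range. The proline-rich proteins Prb1a, Prb1b and Prb1c stood at 5.36, 5.57 and 5.53, and the copies can share reads. Cst5, a cystatin, Chia1, an acidic chitinase, Crisp1, a cysteine-rich secretory protein, the claudin gene Cldn22, and BC037156 completed the 12 largest parotid differences of genes at 100 CPM or more, from 5.44 to 5.71. Car6, the secreted carbonic anhydrase, and Pip, the prolactin-inducible protein, were higher in the parotid (3.98 and 4.65) but stood higher still in the submandibular gland. Klk1, tissue kallikrein, went the other way: it had 513 to 2629.7 with a median of 1641 in the parotid and 5764 to 10765 with a median of 9430.0 in the pancreas, with no overlap (log2 fold change -2.46 ± 0.28, adjusted p = 1.01e-05). The lysozymes Lyz1 and Lyz2 were higher in the parotid with overlapping libraries (1.44 and 1.07). Lyz2 is also a gene of macrophages, of whose 10 measured markers 3 were higher in the parotid, and their part was not tested. Prol1 was also called higher in the pancreas, with both glands in the low range against the submandibular gland, and Muc13 and Mucl1 were not called.

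Amylase was abundant in both glands, from different genes. The table lists 7 amylase genes in 1 cluster on chromosome 3, among them Amy1 (listed exon 113349601-113349822 on GRCm39) and Amy2a1 (113314932-113317163). Amy1 had 28596 to 116222 with a median of 62829 scaled CPM in the parotid and 706 to 2371 with a median of 1102 in the pancreas (log2 fold change 5.73 ± 0.36, adjusted p = 4.31e-08). Amy2a1 had 53.4 to 168 with a median of 99.3 in the parotid and 35870.3 to 59727 with a median of 52389.8 in the pancreas (-9.01 ± 0.32, adjusted p = 2.14e-10). Every library of the higher gland was over 10-fold above every library of the other in both genes. The lower gland was in the low range in both. Amy1 made up 99.5 to 99.9% of amylase counts in the parotid and 1.13 to 5.54% in the pancreas. Amy2a2, Amy2a3, Amy2a4, Amy2a5 and Amy2b were all called higher in the pancreas, from -8.13 (Amy2a3) to -10.21 (Amy2a2). Because these copies are nearly alike, how their reads were split between them is uncertain. The sum does not depend on that split. Whether reads that match several copies were counted is not given, and its effect on the sum was not tested.

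Summed over the 7 genes, amylase came to 65478 ± 24979 scaled CPM in the parotid and 55824 ± 9790 in the pancreas (SD, n = 10). The parotid was higher in 6 of 10 animals, and the mean log2 ratio was 0.15 with an SD of 0.64 between animals, so the sums did not differ beyond their spread. This depended on scaling: with library size only the mean log2 ratio was 1.29, and with all 12 animals it was 0.80. As a share of raw counts, amylase took 5.79 to 12.6% of a parotid library and 2.68 to 4.21% of a pancreas library. Amy2b in the pancreas differed between strains without overlap. It had 5222 ± 502 scaled CPM in 4 CD1 animals and 745 ± 54.5 in 6 C57 animals (SD), a difference picked after its values were seen and not tested.

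**Figure D3:**
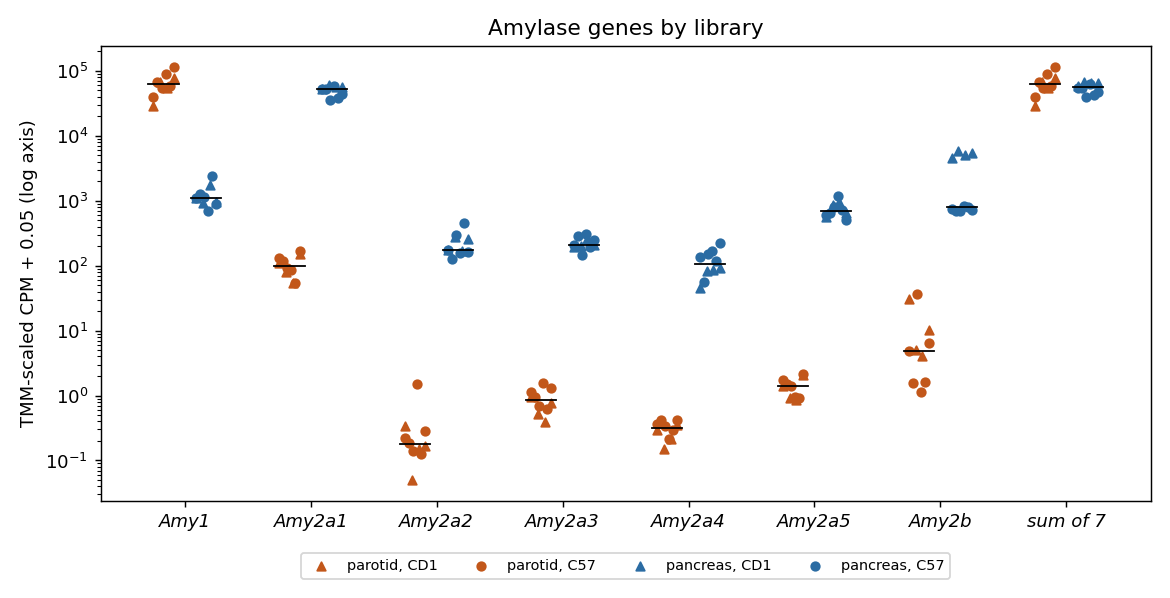
Scaled CPM plus 0.05 (log axis) of each amylase gene and their sum in every library, parotid in orange and pancreas in blue, triangles for CD1 and circles for C57, with black bars at medians. Amy1 is the high gene in the parotid and Amy2a1 in the pancreas, while the sums overlap. Amy2b splits by strain in the pancreas.

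Different transcription factor genes were high in each gland, and some were at similar levels. Of 42 measured genes, 18 were called higher in the pancreas (42.9%) and 11 in the parotid (26.2%), beside 10.7% and 15% of all tested. The median log2 fold change was -0.59, and with library size only the counts were 15 and 17. Ptf1a and Rbpjl, whose proteins form the PTF1 complex on enzyme genes, stood at 10.2 to 27.3 with a median of 19.3 and 156 to 768 with a median of 505 scaled CPM in the pancreas. In the parotid they stood at 0 to 0.139 with a median of 0.0276 and 0.481 to 1.67 with a median of 0.934. The log2 fold change was -8.97 ± 0.42, adjusted p = 2.67e-09 for Ptf1a and -8.81 ± 0.31, adjusted p = 1.67e-10 for Rbpjl, with the parotid in the low range for both. Nr5a2, a nuclear receptor that acts with PTF1, had 28.4 to 51.0 with a median of 36.8 in the pancreas and 0.424 to 1.44 with a median of 0.645 in the parotid (-5.72). The foregut and endoderm factors Gata4, Foxa2 and Foxa3 stood at -7.05, -7.25 and -6.50. Gata6 and Mecom were higher in the pancreas with the parotid outside the low range (-3.49 and -3.01). Pdx1 and Nkx2-2, known from pancreas progenitors and islets, had at most 3 counts in every parotid library and so were at least 135-fold and 79.2-fold lower there.

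Among the 11 factor genes higher in the parotid, Etv1, an ETS factor, was the most abundant, at 83.4 to 229 with a median of 160.3 scaled CPM in the parotid and 3.92 to 17.2 with a median of 9.32 in the pancreas (log2 fold change 4.01 ± 0.33, adjusted p = 4.52e-07). Ehf, an ETS factor of epithelia, had 54.7 to 137 with a median of 97.3 and 14.3 to 32.3 with a median of 25.0 (1.93). Sox10, a factor of salivary acinar cells and of Schwann cells, had 52.0 to 124 with a median of 77.8 and 1.45 to 4.98 with a median of 2.67 (4.79). Of 8 peripheral nerve markers, of which Sox10 is 1, 4 were higher in the parotid, with summed levels of 99.7 to 247 against 36.6 to 48.1, and their part in Sox10 was not tested. The ranges of Etv1, Ehf and Sox10 did not overlap, and the pancreas was in the low range for each. The highest tissue was the sublingual gland for Etv1 and Ehf and the submandibular gland for Sox10. Barx2, Elf5, Foxc1, Pitx1, Runx1, Tfcp2l1 and Six4 followed at 4.61, 4.35, 4.22, 3.91, 2.40, 1.94 and 1.21. Bhlha15 (Mist1), which shapes the secretory apparatus of serous acinar cells, was in the shared set, with 109 to 394 with a median of 269 in the parotid and 199 to 396 with a median of 307 in the pancreas (log2 fold change -0.45 ± 0.20, adjusted p = 0.0747). Xbp1, the unfolded protein response factor of secretory cells, had 118 to 390.3 with a median of 228 and 300.4 to 504 with a median of 395. Its log2 fold change was -0.83 ± 0.17, adjusted p = 0.00104, under 2-fold and therefore not called. Sox9 and Elf3 were also not called (0.39 and 0.38).

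**Figure D4:**
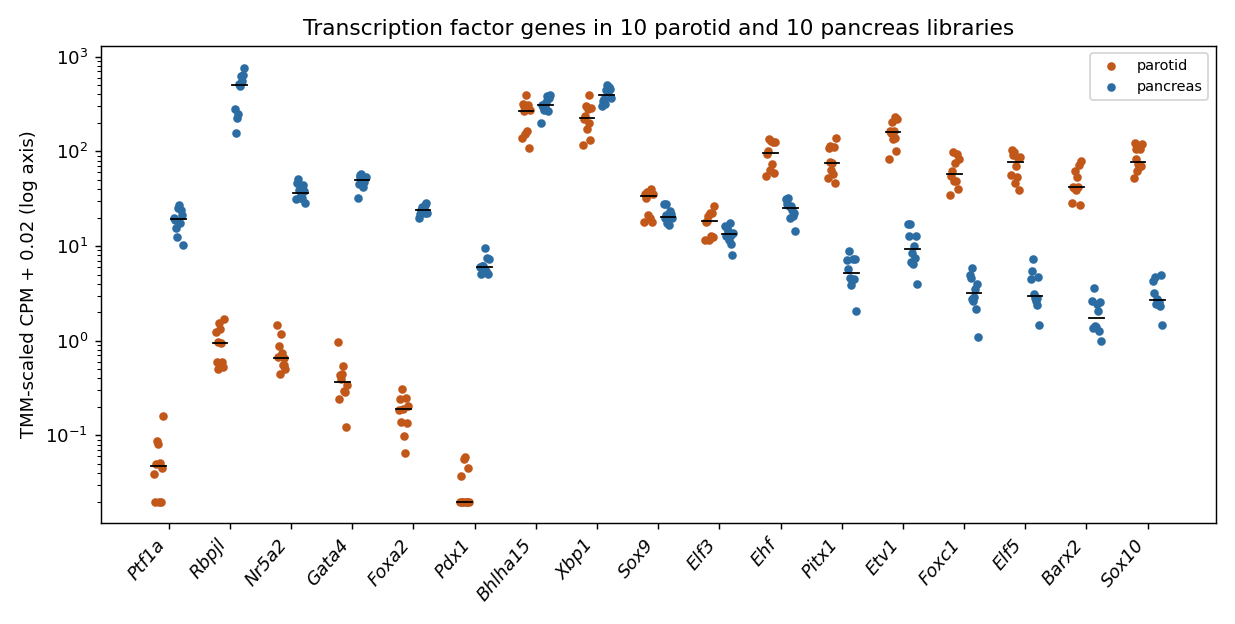
Scaled CPM plus 0.02 (log axis) of 17 transcription factor genes in each of 10 parotid (orange) and 10 pancreas (blue) libraries, with black bars at medians. The first 6 genes stand high in the pancreas, Bhlha15 to Elf3 overlap between the glands, and Ehf to Sox10 stand high in the parotid.

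The cholecystokinin receptor gene Cckar was higher in the pancreas, the adrenergic receptor genes Adrb1 and Adra1a were higher in the parotid. Of 36 measured genes of receptors and signalling, 9 were called higher in the parotid (25%, beside 15% of all genes tested) and 6 in the pancreas (16.7%, beside 10.7%), with a median of 0.04. With upper quartile scaling both counts were 7, and with library size only they were 19 and 2. Cckar, the cholecystokinin receptor, had 452 to 641 with a median of 495 scaled CPM in the pancreas and 0.324 to 1.20 with a median of 0.774 in the parotid (log2 fold change -9.41 ± 0.25, adjusted p = 2.90e-11). Vipr2, a receptor for vasoactive intestinal peptide, had 9.79 to 18.7 with a median of 13.4 and 0.0387 to 0.271 with a median of 0.169 (-6.42). Cckbr and Grpr, the second cholecystokinin receptor and the receptor for gastrin-releasing peptide, had at most 3 counts in every parotid library and were at least 17.6-fold and 20.2-fold lower there. Adrb1, the beta-adrenergic receptor, went the other way, with 9.42 to 26.1 with a median of 16.9 in the parotid and 1.41 to 5.15 with a median of 2.47 in the pancreas (2.67 ± 0.25, adjusted p = 1.60e-06). Adra1a, an alpha-adrenergic receptor, and the ATP-gated channels P2rx7 and P2rx4 were higher in the parotid as well (2.56, 2.31 and 1.51). The pancreas was in the low range for Adrb1 and Adra1a against the submandibular gland and for P2rx7 against the sublingual gland. Chrm3, the muscarinic receptor for acetylcholine, had 9.65 to 23.0 with a median of 16.3 in the parotid and 8.64 to 13.4 with a median of 12.2 in the pancreas. Its ranges overlapped, and its log2 fold change of 0.38 ± 0.13, adjusted p = 0.0221 was under 2-fold.

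Downstream, the parotid was higher for Atp2a3, a calcium pump of the endoplasmic reticulum. It had 213 to 576 with a median of 388 scaled CPM in the parotid and 32.8 to 138 with a median of 88.4 in the pancreas (2.17 ± 0.28, adjusted p = 2.50e-05). The pancreas was in the low range against the sublingual gland. The calcium release channels Itpr1 and Itpr3 were higher in the parotid by little over 2-fold (1.06 and 1.04), as was Cd38, which makes a calcium-releasing nucleotide, by more (2.14). Prkar2b, a regulatory subunit of protein kinase A, was also higher (3.23), and it is known from fat as well, whose summed markers ran from 32 to 3620 in the parotid. Their part in it was not tested. Gnaq and Gnas, the G proteins of the calcium and cyclic AMP arms, were not called (0.02 and -0.34), nor were Itpr2, Stim1, Orai1 and Atp2a2 (0.06, 0.36, 0.56 and 0.32).

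Among genes of fluid and salt transport, more were higher in the parotid than in the pancreas. Of 32 measured genes, 16 were called higher in the parotid (50%, beside 15% of all genes tested), 5 in the pancreas (15.6%, beside 10.7%) and 11 were not called, with a median of 1.08. Slc12a2, the carrier that loads acinar cells with chloride, had 146 to 387 with a median of 279 scaled CPM in the parotid and 31.2 to 57.8 with a median of 44.8 in the pancreas (log2 fold change 2.64 ± 0.17, adjusted p = 4.63e-08). Kcnn4, a calcium-activated potassium channel, had 174 to 487 with a median of 363 and 8.31 to 30.7 with a median of 14.8 (4.27 ± 0.30, adjusted p = 1.14e-07). Aqp5, the apical water channel of salivary acini, had 71.8 to 192 with a median of 129 and 3.28 to 19.8 with a median of 11.4 (3.44 ± 0.33, adjusted p = 2.38e-06). None of these overlapped between the glands, and the pancreas was in the low range for each. The highest tissue was the sublingual gland for Slc12a2 and Aqp5 and the submandibular gland for Kcnn4. Ano1, the calcium-activated chloride channel of the apical membrane, differed less and outside the low range, with 66.4 to 127 with a median of 107 and 30.1 to 45.1 with a median of 34.7 (1.46 ± 0.12, adjusted p = 5.52e-07). The sodium pump gene Atp1b1 (2.76), the potassium channel Kcnma1 (3.62), the pump regulator Fxyd2 (3.73), the carbonic anhydrases Car2 and Car12 (3.52 and 2.92) and the epithelial sodium channel genes Scnn1a, Scnn1b and Scnn1g (2.03, 2.46 and 2.85) were higher too.

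The 5 transport genes higher in the pancreas included 2 water channels. Aqp12, an aquaporin of pancreatic acinar cells, had 167 to 280.0 with a median of 240.3 scaled CPM there and 0.103 to 0.718 with a median of 0.292 in the parotid (log2 fold change -9.63 ± 0.27, adjusted p = 4.32e-11). Aqp8 stood at -4.52, although its highest parotid library (22.9) lay inside the pancreas range (9.35 to 37.1). Kcnq1, a potassium channel, had 21.0 to 43.5 with a median of 28.7 and 1.64 to 5.34 with a median of 4.03 (-3.01 ± 0.22, adjusted p = 1.53e-07), and Slc26a6, a chloride-bicarbonate exchanger, stood at -2.34. Kcne1 was also called higher in the pancreas, with both glands in the low range against the sublingual gland. Cftr, the cyclic AMP-gated chloride channel of ducts, had 0.874 to 4.90 with a median of 2.13 in the parotid and 0.343 to 5.83 with a median of 1.52 in the pancreas (0.51 ± 0.34, adjusted p = 0.227), and was not called. The claudins Cldn3 and Cldn10 were not called either (-0.28 and -0.38).

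Genes of amino acid transport and metabolism were more often higher in the pancreas. Of 31 measured genes, 15 were called higher in the pancreas (48.4%) and 4 in the parotid (12.9%), beside 10.7% and 15% of all tested. The median was -0.93, and with library size only the counts were 9 and 7. Gatm, which makes the creatine precursor guanidinoacetate, had 329 to 595 with a median of 457 scaled CPM in the pancreas and 2.94 to 7.49 with a median of 5.13 in the parotid (log2 fold change -6.55 ± 0.23, adjusted p = 1.97e-10). The parotid was in the low range. Gamt, the next enzyme of creatine synthesis, stood at -6.41, and Cbs, of transsulfuration, at -5.37. The amino acid carriers Slc38a5, Slc7a8 and Slc38a3 stood at -8.76, -5.19 and -4.95. Phgdh, the first enzyme of serine synthesis, and Asns, asparagine synthetase, were higher in the pancreas by less and outside the low range (-1.61 and -1.14). Asns was not called without the animals high in T cell markers (-0.95). Glul, glutamine synthetase, went the other way, with 145 to 405 with a median of 236 in the parotid and 33.0 to 99.7 with a median of 37.9 in the pancreas and no overlap (2.46 ± 0.14, adjusted p = 2.13e-08). Slc43a1, a carrier of branched-chain amino acids, and Oat, ornithine aminotransferase, were higher in the parotid too (3.11 and 1.30), as was Arg1, arginase, which stood highest in liver (1.31). Slc3a2, the common heavy chain of several carriers, and Bcat2, a branched-chain aminotransferase, were not called (-0.55 and -0.93).

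Different defence genes were high in each gland. Of 23 measured genes of antimicrobial and mucosal defence, 13 were called higher in the pancreas (56.5%) and 8 in the parotid (34.8%). Of all genes tested the shares were 10.7% and 15%. The median of the list was -2.38. Lpo, the lactoperoxidase of saliva, had 495 to 2928 with a median of 1149 scaled CPM in the parotid and 15.9 to 55.3 with a median of 30.8 in the pancreas (log2 fold change 5.30 ± 0.39, adjusted p = 1.65e-07). Pigr, which carries immunoglobulin A through epithelium, had 139.8 to 376 with a median of 213 and 24.2 to 85.6 with a median of 49.4 (2.16). The pancreas was in the low range for both, against the parotid for Lpo and against the sublingual gland for Pigr. Of the Reg family of secreted lectins, all 6 measured genes were higher in the pancreas, led by Reg1, with 7365 to 13273 with a median of 11013 in the pancreas and 7.67 to 33.6 with a median of 18.6 in the parotid (-9.17 ± 0.30, adjusted p = 8.63e-11). Reg2, Reg3a, Reg3b, Reg3d and Reg3g stood between -7.38 (Reg3g) and -9.13 (Reg3d), and they varied widely between pancreas libraries, from 8.17 to 508 in Reg3a. Muc1, a membrane mucin, stood at -7.11. Ltf and Lcn2, lactoferrin and lipocalin, were not called (1.32 and 0.73).

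Markers of other cell types differed between the glands and between parotid libraries. For comparison, 15% of all genes tested were called higher in the parotid and 10.7% in the pancreas. Of 18 measured islet markers, 18 were called higher in the pancreas, and the summed level of the list was 132 to 1300 scaled CPM there and 13.6 to 43.5 in the parotid. Of 11 measured pancreatic duct markers, 5 were called higher in the pancreas, 3 in the parotid (Krt7, Epcam and Car2) and 3 were not called. Tff2 was the highest of them, at 1500.1 to 2609 with a median of 2206 in the pancreas and 1.48 to 6.65 with a median of 3.40 in the parotid. Of 21 salivary duct markers, 12 were called higher in the pancreas, led by Klk1, and 9 in the parotid, among them Krt5, Krt14 and Kit. They summed to 6180 to 12300 in the pancreas and 870 to 3280 in the parotid. Klk1 alone had a mean of 8439 in the pancreas, and 16 of the 21 were in the low range in a gland. For myoepithelial and smooth muscle cells, 8 of 10 markers were higher in the parotid (summed 110 to 318 against 26.3 to 91.1). For B and plasma cells it was 11 of 13 (24.1 to 1020 against 19.1 to 70.6), and for T and natural killer cells 9 of 11 (2.67 to 246 against 2.39 to 12.1). Of 10 endothelial markers edgeR called 0, with 2 at an unadjusted p under 0.05 (summed 69.5 to 196 against 73.7 to 183). Of 11 fibroblast markers 1 was higher in the parotid (9.09%), Col1a1 (1.28). Of 13 hepatocyte markers 11 were called higher in the pancreas, with both glands in the low range against liver. As a share of raw counts this list had a median of 0.0721% in the parotid and 0.0758% in the pancreas. The shares before scaling were thus close, and the calls of marker lists were not recounted with library size only. Of 5 measured enterocyte markers 1 was higher in the parotid and 2 in the pancreas, and the summed level of the list of 10 was 31.2 to 133 in the parotid and 102 to 329 in the pancreas.

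Some parotid libraries stood apart in markers of other tissues. Summed lacrimal gland markers reached 35600 scaled CPM in C57 male 2 and 13200 in C57 female 1, against a parotid median of 15.9 and a pancreas range of 1.19 to 167. Adipocyte markers summed to 3620 in C57 female 2 and 1540 in C57 male 3, with a parotid median of 165 and a pancreas range of 29.6 to 85.3. Skeletal muscle markers passed 1000 in CD1 male 1, C57 female 2 and C57 female 3, with a pancreas maximum of 133. T cell markers passed 100 in CD1 male 1, CD1 male 3, C57 male 1 and C57 male 3. Leaving out each of these sets of animals, in steps chosen after the data were seen, gave 3958, 3789, 3714 and 3237 called genes in that order. The enzyme list kept 30 calls in all 4, the saliva list 11 to 13 parotid calls, the folding list 17 to 23 pancreas calls and the fluid transport list 16 or 17 parotid calls. Without the T cell set the exocytosis list fell from 2 parotid calls to 0 and the secretagogue list from 9 to 7, and without the lacrimal set the list of entry into the endoplasmic reticulum went from 6 pancreas calls to 11. Of 96 single genes recomputed, 95 had the same call without the lacrimal set, 94 without the adipocyte set, 94 without the muscle set and 92 without the T cell set.

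**Figure D5:**
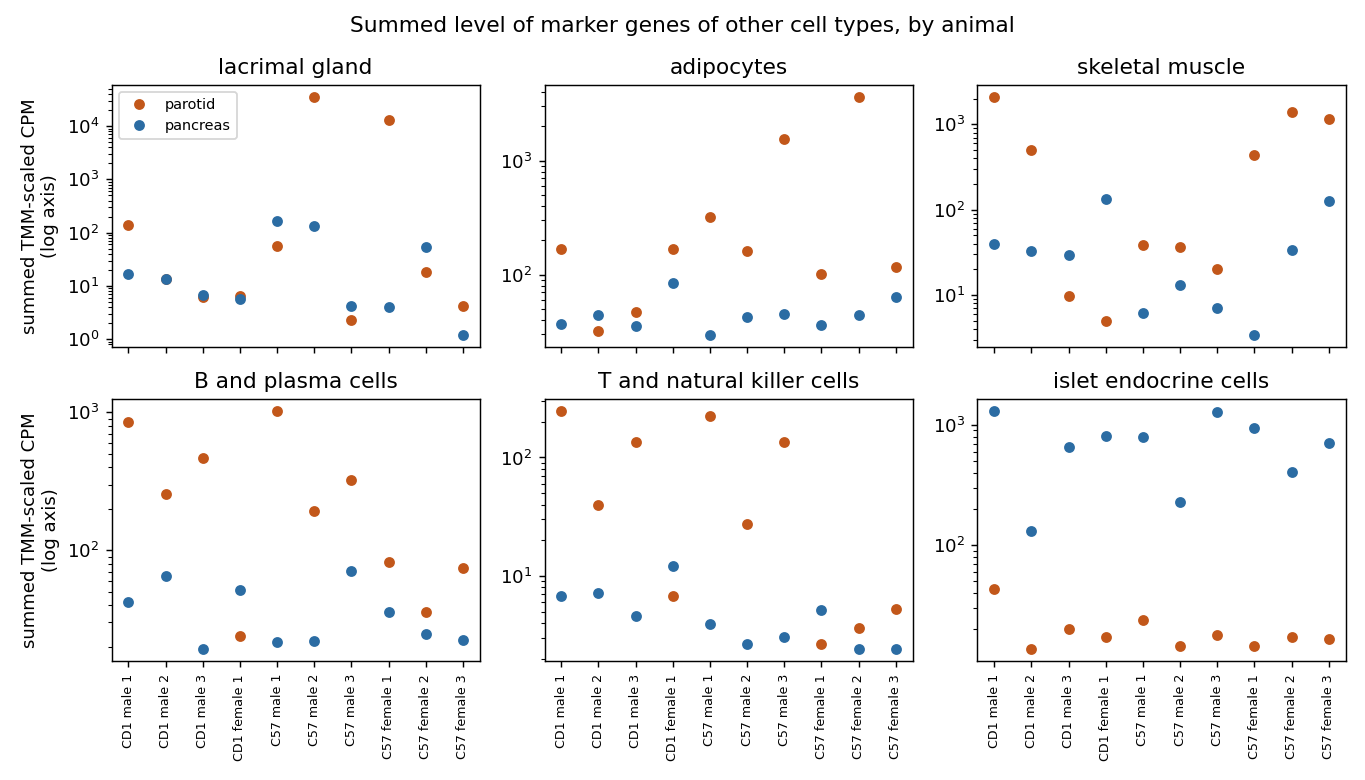
Summed scaled CPM (log axis) of marker genes of 6 other tissues or cell types by animal, parotid in orange and pancreas in blue. Lacrimal markers stand high in 2 parotid libraries, adipocyte and muscle markers in 2 and 3, lymphocyte markers in several, and islet markers in every pancreas library.

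The difference between the glands depended on strain for 39 genes (0.257%) and on sex for 66 (0.434%) by edgeR's test of the interaction at an adjusted p under 0.05. At an unadjusted p under 0.05 the counts were 1710 and 1712. H2-T27, a class I histocompatibility gene, had 48.4 ± 29.6 scaled CPM in the CD1 parotid and 6.34 ± 2.60 in the CD1 pancreas (SD, n = 4). In C57 it had 0.295 ± 0.0862 and 1.04 ± 0.322 (SD, n = 6), both under 3% of the CD1 parotid level, where whether reads reflect expression was not tested. The log2 fold change was higher in CD1 by 4.38 ± 0.31 (SE, edgeR adjusted p = 0.00022). Degs1, a ceramide synthesis enzyme, had 20.9 ± 2.78 and 23.0 ± 1.38 in CD1 against 15.7 ± 1.66 and 48.1 ± 4.65 in C57, in the same order, a log2 fold change higher in CD1 by 1.45 ± 0.15 (edgeR adjusted p = 0.00314). Of the gene lists only Kit and Dcpp2 were among the strain calls.

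By sex, Mup20, a major urinary protein gene, had 6.61 ± 2.60 scaled CPM in the male parotid (n = 6) and 0.284 ± 0.204 in the female parotid (n = 4), with 18.4 ± 11.4 and 16.1 ± 8.91 in the pancreas (SD). The log2 fold change was higher in males by 4.96 ± 0.40 (SE, edgeR adjusted p = 0.000826). Mup7, of the same family, gave 6.81 ± 0.70 (edgeR adjusted p = 0.00554). Both genes stood highest in liver, and both glands were in the low range for them. Of the sex calls, 63 had the higher log2 fold change in males, and 8 were B or T cell markers (Fcer2a, Pax5, Cd3g, Cd4, Cd8a, Ccr7, Cd3e and Lck). For all 8, every male parotid library was above every female one. Summed T and natural killer cell markers were also higher in CD1 male 2 (39.9) and C57 male 2 (27.6) than in the female parotids (2.67 to 6.74). The part of the 4 male parotid libraries high in T cell markers named above was not tested gene by gene. Leaving out those 4 animals left CD1 male 2 and C57 male 2 as the only males. EdgeR then called 0 genes by strain and 0 by sex, with 955 and 644 at an unadjusted p under 0.05. Without the 3 animals high in muscle markers it called 0 by sex, with 1505 at an unadjusted p under 0.05. Leaving out single animals moved the count by strain between 8 (CD1 female 1) and 95 (C57 female 2), and by sex between 2 (C57 male 1, C57 male 3 or C57 female 1) and 390 (C57 male 2).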

How the data were processed

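Poly(A) RNA of mouse tissue was sequenced, and the authors deposited 1 table of read counts per gene for all 60 libraries. Per the submitters' processing notes the tools were Trim Galore, HISAT2 and featureCounts on build GRCm39 (mm39), with versions not given. Even counts were more frequent than odd ones (ratio 1.79), as where both mates of a pair are counted, so counting error is larger than the counts show. Members and gene lists were chosen with earlier results of these data known.

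The 10 animals with at least 1000000 counts of Cpa1 in the pancreas were analysed with R 4.3.3, edgeR 4.0.16 (TMM, quasi-likelihood test, animal as block, Benjamini-Hochberg adjustment over 15202 genes left by edgeR's filter on low counts of 41079 listed), limma 3.58.1 and DESeq2 1.42.0. The block rests on both glands coming from 1 animal. As a check, deviations from the mean of each tissue and strain were correlated. The 2 glands of an animal correlated at -0.143 to 0.242 (median 0.166), over 0.1 in 7 of 10 animals. Glands of different animals of the same strain correlated at -0.232 to 0.271 (median -0.049). Of the 10 animals, 6 matched best with their own gland. C57 male 1, C57 male 2, C57 female 1 and C57 female 2 did not, so the check says little for the pairing in C57. P-values measure the spread between animals. Differences by strain and sex are CD1 minus C57 and male minus female.

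Named genes were, for each direction, the 12 with the largest fold among calls with all 10 animals the same way and at least 100 CPM in the higher gland, the 12 shared genes with the highest level per kilobase, the 2 smallest p of each interaction at 10 CPM or more, up to 6 members of each list by level, and a fixed set (amylases, Ptf1a, Rbpjl, Nr5a2, Bhlha15, Xbp1, Cckar, Chrm3, Adrb1, Aqp5, Slc12a2, Ano1, Cftr, Cpa1, Bpifa2). Other list members were named after their values were seen, and a few genes counted in the lists are not reported here by name. A gene with at most 3 counts in every library of a gland is given as a bound against 3 counts per library, and with such genes at their bound the medians of the lists were the same. No 2 libraries of a tissue agreed within sampling noise (chi-square per degree of freedom 20.9 to 708 over 90 pairs). On data simulated for this comparison over 15202 genes, 98 of 100 genes changed 4-fold and 100 of 100 changed 8-fold were recovered, with 7 false calls. The simulated glands had the same mean profile apart from the changed genes, which went up and down in equal number. They did not carry the difference in scaling factors between the real glands, so recovery and false calls under it were not tested.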

Additional observations from a re-analysis of the deposited data

Results flagged for a closer look

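In 104 groups of 10 values checked, 9 had a highest or lowest sample far from the rest. The cut used is passed by about 1 in 20 groups of normally distributed values. The values were not on a log scale and the groups share libraries, so the 9 cannot be set against that rate. In the parotid, Prb1b stood at 515 scaled CPM in CD1 female 1 (next 306), Amy2a2 at 1.43 in C57 female 1 (next 0.293), Cox6a1 at 296 in C57 male 3 (next 183), and Ptf1a at 0.139 in C57 female 3 (next 0.0679). Fau was lowest in the parotid of C57 female 2, at 88.8 (next 129). In the pancreas, Amy2a2 stood at 451 in C57 female 2 (next 293). Summed markers in the parotid stood apart for lacrimal gland at 35600 in C57 male 2 (next 13200), for adipocytes at 3620 in C57 female 2 (next 1540), and for myoepithelial and smooth muscle cells at 318 in CD1 female 1 (next 215).

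By edgeR's interaction test, the log2 fold change of parotid over pancreas was higher in CD1 than in C57 by 4.38 for H2-T27 and by 1.45 for Degs1. It was higher in males than in females by 4.96 for Mup20 and by 6.81 for Mup7. C57 male 2, which stands apart in lacrimal markers, is the animal without which the count of genes that differ by sex was highest.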

How the results depend on the processing

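The count of 3902 called genes stayed within 1.5 times under most alternatives tried, with these exceptions. With no minimum fold 8411 genes were called (4872 higher in the parotid, 3539 in the pancreas), with a 4-fold minimum 1642 (956 and 686), with glmTreat 2299 (1232 and 1067), and with at least 10 CPM in 10 libraries 991 (409 and 582, fewer genes being tested). Library size only gave 10714 (10114 and 600), and females only gave 1438 higher in the parotid. The fit with no replicate block gave 4038 genes, so the pairing by animal did not move this count by over 1.5 times, but it gave 72 genes by strain and 158 by sex in place of 39 and 66. The split of calls moved to 49.6% higher in the parotid with upper quartile scaling and 54.9% with RLE. Leaving out 1 animal each gave 3685 to 3995 genes (2114 to 2376 in the parotid, 1571 to 1649 in the pancreas). Shared genes numbered 432 at 50 CPM, 2 at 500 CPM, 47 with an interval within 1.5-fold, and 114 to 135 with 1 animal left out. Lists of 50 genes shared 17, lists of 500 shared 338, and the lists of 100 shared 51 to 55 with 1 animal left out.

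The counts by strain and by sex were unstable. All 12 animals gave 14 and 3, DESeq2 281 and 563, limma-voom 70 and 119, and no filter 117 and 417, while the 10 CPM filter gave 1 by sex. Without the libraries high in lacrimal, adipocyte, skeletal muscle or T cell markers, chosen after the data were seen, edgeR gave 12, 25, 21 and 0 by strain and 192, 4, 0 and 0 by sex. At an unadjusted p under 0.05 the counts of 0 stood beside 955 by strain and 644 by sex without the T cell set, and 1505 by sex without the muscle set. With 1 animal left out, counts ran from 8 to 95 by strain and from 2 to 390 by sex. By strain, CD1 male 2 and CD1 male 3 gave 18 each, C57 male 1 gave 19, C57 male 3 gave 16 and C57 female 3 gave 24. By sex, CD1 male 1 gave 29, CD1 male 2 gave 134, and CD1 male 3 and CD1 female 1 gave 3 each. Single genes reversed in 3 cases: Unc13d stood at -0.20 in females only, and with library size only Rab3d stood at 0.080 and Stxbp2 at 1.02. The cause was not tested. Counts limit genes under about 3 counts, and copies such as the amylases share reads.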

Other observations

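Some pancreatic genes differed between the strains within the pancreas without overlap, which no comparison above uses and which was noticed after the values were seen and not tested. Ctrc, the chymotrypsinogen C gene, ran from 14560.0 to 23220.0 scaled CPM in the pancreas of 4 CD1 animals and from 399 to 555 in 6 C57 animals. Rbpjl, the partner of Ptf1a, went the other way, from 156 to 280.5 in CD1 and from 493 to 768 in C57. Reg2 ran from 669 to 4325 in CD1 and from 3706 to 9773 in C57, which overlap.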
